A study of Rattus norvegicus with 46 samples.

Results

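The comparison described here is between lungs of rats that had inhaled crystalline silica and lungs of rats that had inhaled filtered air, taken 6 months after the exposure. It holds 10 of the 46 samples of the series, chosen by the tissue, time point and treatment that the labels give, with 4 air and 6 silica samples. All animals were healthy male Fischer 344 rats weighing 250 to 300 g, with no genetic alteration named, and the series title calls them aged without giving an age. The silica rats breathed Min-U-Sil 5, which is finely milled quartz, at 15 mg/m3 in whole-body chambers for 6 hours a day on 5 days, and the air rats breathed filtered air on the same schedule. Each sample is RNA of lung tissue made into stranded libraries of polyadenylated RNA, so the values are sums over all cells of the tissue. The air lungs taken 1 day after exposure (6 samples) and whole blood taken at 6 months (12 samples) are used below to set levels side by side.

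Quartz particles that reach the alveoli are taken up by macrophages, which digest them poorly and can die and pass them on, so that dust and inflammation persist long after exposure ends. Macrophages and epithelial cells that meet the dust release chemokines that draw in neutrophils and monocytes, surfactant-making alveolar type 2 cells enlarge and multiply, and lymphocytes gather around airways and vessels. In rats and people the late outcome can be silicosis, in which nodules of macrophages and collagen replace lung tissue.

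Before averaging, the 10 libraries held 15753450 to 24638427 estimated counts, with 18943 to 19808 genes at 1 count or more, and TMM scaling factors after averaging were 0.95 to 1.03. In 3 pairs, air 19 and 24, air 20 and 25, and silica 30 and 31, between 10.14% and 11.54% of genes differed at p under 0.05 when their counts were compared by chi-square, where sampling alone gives 5%. The other pairs within the air group differed in 42.73% to 47.44% of genes and those within the silica group in 36.83% to 74.21%. The members of a pair differed by little more than sampling noise and were averaged into 1 sample, giving 2 air libraries (19-24 and 20-25) and 5 silica libraries (30-31, 32, 33, 34 and 35). Values below are CPM (counts scaled to one common library total) and stand in that order, and a value after ± is the standard error (SE) of a log2 fold change. Nothing in the labels ties each sample to an animal of its own, so a p-value here reflects the spread among libraries, which may be technical, and an exact permutation test of 2 against 5 could not go below a two-sided p of 0.0952. The first principal component of log CPM held 59.7% of the variance and placed the air libraries at one end, at -64.6 and -48.6, silica library 30-31 next at -9.35, and the other silica libraries between 11.1 and 56.7.

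All 8 lung markers were present in every library. Sftpc, the gene of surfactant protein C, was at 4799.7 and 5979 CPM in air and 8581, 10405, 18661, 12861 and 14107 CPM in silica lungs, and Ager, a marker of the flat alveolar type 1 cells, was at 1182 and 1328 CPM in air and 1541, 1614, 2723, 1799 and 2167 CPM in silica lungs. Sftpc was higher in each silica library than in both air libraries (log2 fold change 1.26 ± 0.33, SE, adjusted p = 0.0332 by edgeR's quasi-likelihood test), while Ager did not pass (adjusted p = 0.108).

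By that test 3190 of 16265 genes passed an adjusted p of 0.05, which is 19.6%. Of these, 1549 rose (9.52% of the genes tested) and 1641 fell (10.1%), and 859 rises and 871 falls were at least 2-fold. The median log2 fold change over all genes was -0.00. A stricter description, in which every silica library lies above or below both air libraries by at least 2-fold in CPM after 0.5 is added, held for 186 rises (1.14%) and 260 falls (1.6%). The 2 air libraries carry the count. Without air library 19-24, 57 genes passed, 9 up and 48 down, and without air library 20-25, 1063 passed, 471 up and 592 down. Each of these 2 fits had a single air library, whose spread was assumed to equal that of the silica libraries. With any 1 silica library left out, 808 to 2100 genes rose and 941 to 2069 fell. In all 7 fits together 49 of the genes passed, 9 of them rises and 40 falls.

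**Figure D1:**
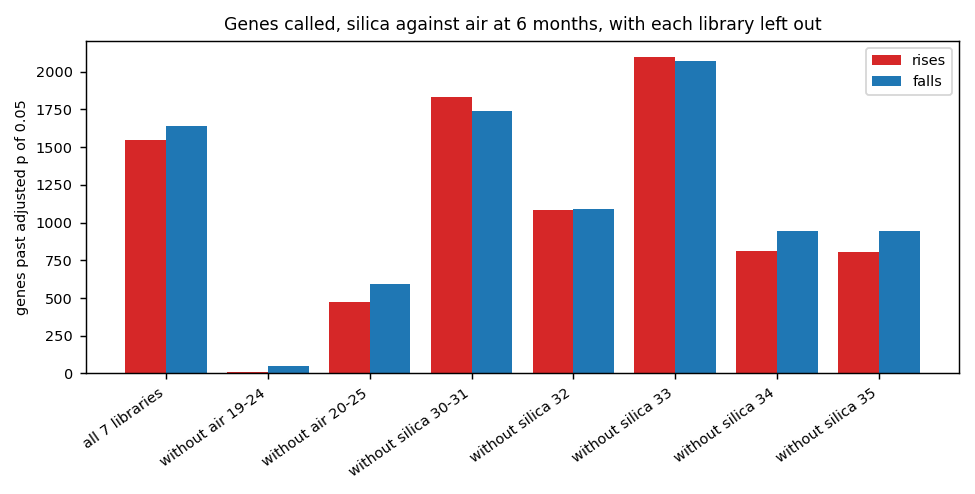
Number of genes past an adjusted p of 0.05 (vertical axis) with all 7 averaged libraries and with each library left out in turn, rises and falls drawn as separate bars. Without air library 19-24 the bars fall to 9 and 48, and without silica library 33 they reach 2100 and 2069.

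The 9 rises that passed in all 7 fits were Lpo, Orm1, Vat1l, Cxcl6, Tmem45b, LOC100911581, Klri2, Fcer2 and Cxcl2. Promoter windows from RefSeq (build GRCr8, 250 bases before to 50 after the start) were at hand for 11 of the 21 genes named from this group of rises and falls. The 250 bases before the start are shown for Lpo, which had the largest fold change of the 9, and for the acute-phase gene Orm1 and the neutrophil chemokine genes Cxcl6 and Cxcl2, whose groups are described below. C/EBP and NF-kB are factors known for driving acute-phase and chemokine genes. Capitals mark matches, on either strand, to TTGCNNAA for C/EBP and to the general NF-kB consensus, which was added after the sequences were seen to a narrower NF-kB search in 2 fixed spellings. Each sequence runs 5′ to 3′ in the direction of the gene, so that those on the minus strand are the reverse complement of the chromosome.
Lpo (chr10:73123457-73123706, minus strand): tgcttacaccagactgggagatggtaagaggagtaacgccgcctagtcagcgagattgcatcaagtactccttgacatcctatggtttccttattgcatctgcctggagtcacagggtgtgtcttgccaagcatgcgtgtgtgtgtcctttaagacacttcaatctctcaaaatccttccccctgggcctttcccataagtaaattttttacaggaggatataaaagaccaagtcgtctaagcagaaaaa
Orm1 (chr5:81788259-81788508, plus strand): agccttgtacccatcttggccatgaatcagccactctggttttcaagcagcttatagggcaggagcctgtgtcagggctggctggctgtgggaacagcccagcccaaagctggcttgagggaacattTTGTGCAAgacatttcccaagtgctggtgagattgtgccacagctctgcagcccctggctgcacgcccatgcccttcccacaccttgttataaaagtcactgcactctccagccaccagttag
Cxcl6 (chr14:17596418-17596667, minus strand): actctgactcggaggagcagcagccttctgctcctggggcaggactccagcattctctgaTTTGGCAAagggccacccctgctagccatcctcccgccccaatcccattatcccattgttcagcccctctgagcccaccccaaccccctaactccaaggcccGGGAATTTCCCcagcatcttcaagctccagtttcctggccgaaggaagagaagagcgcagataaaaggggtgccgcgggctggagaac
Cxcl2 (chr14:17467256-17467505, minus strand): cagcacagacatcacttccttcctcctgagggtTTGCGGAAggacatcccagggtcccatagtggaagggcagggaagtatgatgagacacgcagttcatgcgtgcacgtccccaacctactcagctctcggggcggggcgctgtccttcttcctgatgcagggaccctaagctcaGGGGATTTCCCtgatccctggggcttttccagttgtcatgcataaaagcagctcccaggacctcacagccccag
The window of Orm1 holds a C/EBP match whose first base is at -123 from the start, that of Cxcl2 one at -217, and that of Cxcl6 one at -190. Overlapping matches to the NF-kB consensus, 1 on each strand, start at -88 and -87 in Cxcl6 and at -74 and -73 in Cxcl2, and those of Cxcl6 also fit the narrower spellings. The Lpo window holds none of these letters. Of all 33469 windows of that length, 10.6% hold the C/EBP letters, 7.51% the NF-kB consensus and 0.663% a narrower NF-kB spelling. Among the other letters searched, AP-1 (TGANTCA, 7.33% of windows) matched in Orm1 at -228 and CCAAT (37.5%) in Cxcl6 at -152 and at 22, and in Klri2 and Hnf4a. STAT (TTCNNNGAA, 8.87%) matched in Klri2 alone of the 11 genes, and E2F (TTTCCCGC or TTTGGCGC, 1.45%) in none of them. These are matches of letters, not measured binding sites.

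The largest rises stood far above the air lungs of both times. Lpo, which encodes lactoperoxidase, an airway enzyme that makes antimicrobial oxidants from hydrogen peroxide, was at 0.750 and 1.32 CPM in air and 200.5, 274, 337, 277 and 269 CPM in silica lungs, which is 8.001 ± 0.36 on the log2 scale (adjusted p = 0.000414). It was at 0.353 to 0.632 CPM in the air lungs of 1 day. The silica libraries thus lay far above every air library of either time. Orm1, the gene of the plasma acute-phase protein orosomucoid, was at 0.231 and 0.182 CPM in air and 34.6, 33.8, 31.2, 20.05 and 19.6 CPM in silica lungs (log2 fold change 7.05 ± 0.46, adjusted p = 0.00284). Its 2 air libraries are near the floor of 3 counts, which corresponds to 0.122 to 0.19 CPM in these libraries, and so are the 1-day air lungs (0 to 0.353 CPM), so the fitted value depends on the prior count. Slc26a4 encodes pendrin, an anion exchanger that brings thiocyanate, the substrate of lactoperoxidase, to the airway surface. It was at 5.54 and 6.19 CPM in air and 73.3, 156, 233, 212 and 154 CPM in silica lungs and at 2.55 to 7.08 CPM in air lungs of 1 day, with silica library 30-31 lowest and library 33 highest. It passed in 6 of the 7 leave-one-out fits.

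**Figure D2:**
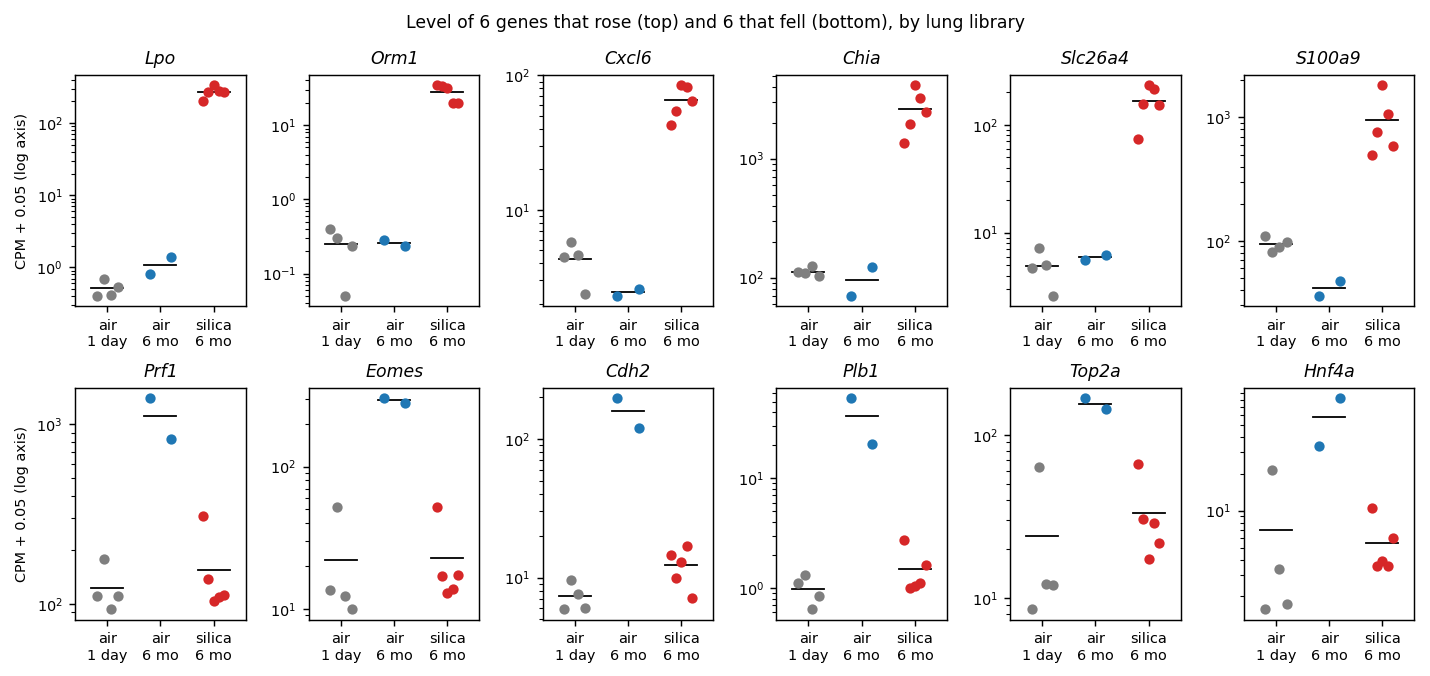
Level (CPM plus 0.05, log axis) of 6 genes that rose and 6 that fell, each point 1 averaged lung library and each line the group mean, for air of 1 day, air of 6 months and silica of 6 months. In the top row the 5 silica libraries lie above all air libraries, and in the bottom row the 2 air libraries of 6 months lie above all others.

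Vat1l was at 0.115 and 0.0910 CPM in air and 7.18, 8.80, 11.2, 13.2 and 5.34 CPM in silica lungs, and Tmem45b, a membrane protein gene, at 0.346 and 0.728 CPM in air and 10.2, 13.1, 17.0, 15.5 and 13.8 CPM in silica lungs. The air values of Vat1l are at or below 3 counts, so its fitted log2 fold change of 6.397 ± 0.57 depends on the prior count. Tmem45b rose by 4.65 ± 0.37 on the log2 scale and was at 0.506 to 0.881 CPM in air lungs of 1 day. The unnamed locus LOC100911581 was at 0.173 and 0 CPM in air and 1.68, 1.15, 1.29, 1.46 and 1.82 CPM in silica lungs, and its level is uncertain, since most of its counts were fractions, a sign of reads that match more than one transcript.

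Chemokines that attract neutrophils rose in 5 of the 5 members tested, against 9.52% of all genes, with a median log2 fold change of 2.10. Cxcl6 was at 2.25 and 2.55 CPM in air and 42.5, 54.1, 84.6, 81.7 and 64.1 CPM in silica lungs (4.76 ± 0.37, adjusted p = 0.00315). The air lungs of 1 day held 2.30 to 5.69 CPM, so the late air lungs were at the low end of the controls. Cxcl2 was at 0.923 and 1.27 CPM in air and 6.73, 8.23, 8.47, 7.47 and 6.41 CPM in silica lungs, and Cxcl1 at 9.57 and 14.7 CPM in air and 40.3, 48.1, 68.1, 52.6 and 52.8 CPM in silica lungs. In both genes every silica library lay above every air library, also those of 1 day (1.39 to 2.78 and 13.3 to 25.7 CPM). The count of rises in this list was 2 without air library 19-24, 4 without air library 20-25 and 4 to 5 without any 1 silica library.

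Markers of neutrophils rose in 13 of 17 members tested and none fell, with a median of 1.78. S100a9 and S100a8 encode the 2 chains of calprotectin, the main protein of neutrophil cytosol. S100a9 was at 35.6 and 47.0 CPM in air and 494, 757, 1833, 1077 and 589 CPM in silica lungs (4.52 ± 0.64, adjusted p = 0.00698) and at 80.8 to 109 CPM in air lungs of 1 day. S100a8 was at 15.0 and 19.4 CPM in air and 123, 196, 446, 251 and 129 CPM in silica lungs. Csf3r, the receptor of granulocyte colony-stimulating factor, was at 7.56 and 10.97 CPM in air and 53.9, 74.1, 61.1, 71.9 and 38.5 CPM in silica lungs and Cxcr2, the receptor of these chemokines, at 4.33 and 4.64 CPM in air and 21.9, 34.3, 24.1, 29.2 and 17.6 CPM in silica lungs. In air lungs of 1 day Csf3r was at 29.2 to 43.3 CPM and Cxcr2 at 11.9 to 16.9 CPM, so the late air lungs lay below the earlier ones and the silica lungs within or above their range. Cd177, a neutrophil surface protein, was at 91.2 and 135 CPM in air and 426, 586, 829, 753 and 609.8 CPM in silica lungs. Mmp9 (log2 fold change -0.47 ± 0.28) and Ngp (0.75 ± 0.45) did not pass. In whole tissue, a change in the number of cells of a type and a change in RNA per cell cannot be told apart. Rises counted in the same way were 0 without air library 19-24, 8 without air library 20-25 and 13 without any 1 silica library.

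Of 10 monocyte and macrophage chemokines, 5 rose and 2 fell (median 1.43). Ccl7, a ligand of the monocyte receptor CCR2, was at 0.577 and 1.46 CPM in air and 8.69, 18.1, 42.2, 30.5 and 19.7 CPM in silica lungs, against 0.546 to 1.06 CPM in air lungs of 1 day. Ccl2, the main CCR2 ligand, was at 2.42 and 5.19 CPM in air and 20.97, 32.4, 64.4, 53.9 and 37.8 CPM in silica lungs. Ccl9 was at 25.5 and 23.6 CPM in air and 36.2, 105, 116, 93.2 and 157 CPM in silica lungs, where silica library 30-31 stood near the air libraries. The members that fell were Ccl4, made by activated lymphocytes and macrophages (-1.36 ± 0.13), and the macrophage growth factor Csf1 (-0.82 ± 0.12). Leaving libraries out, the rises came to 0 without air library 19-24, 3 without air library 20-25 and 4 to 6 without any 1 silica library.

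Among interleukins, tumour necrosis factor and their receptors, 10 of 22 rose and 1 fell. Genes of the interleukin-1 system were among the rises. The cytokine gene Il1b was at 8.77 and 10.01 CPM in air and 39.6, 50.3, 66.9, 45.4 and 49.4 CPM in silica lungs, its antagonist Il1rn at 22.9 and 22.6 CPM in air and 69.1, 117, 116, 110.1 and 108 CPM in silica lungs, and the decoy receptor Il1r2 at 1.62 and 2.003 CPM in air and 10.99, 19.6, 31.4, 22.4 and 11.9 CPM in silica lungs. Agonist, antagonist and decoy thus all rose, by 2.42 ± 0.23, 2.19 ± 0.23 and 3.402 ± 0.51 on the log2 scale, and each passed in 6 of the 7 leave-one-out fits. In Il1rn, silica library 30-31 was set apart on the low side. Ifng, the gene of interferon gamma, which NK and T cells make, was the fall (-2.62 ± 0.64, adjusted p = 0.0284). It was at 0.923 and 0.910 CPM in air and 0.280, 0.205, 0, 0.146 and 0.0628 CPM in silica lungs. These silica values are near or below the floor of 3 counts, so the fitted value depends on the prior count. Among fits that kept the 2 air libraries, the list held no fall without silica library 34, without silica library 35 or with a stricter filter on low counts. The fall is not said to hold with an air library left out. Tnf was at 0.288 and 2.28 CPM in air and 0.729, 0.368, 0, 0 and 0.377 CPM in silica lungs and did not pass (adjusted p = 0.214). Il4, Il13, Il36a and Il36g had no count in these libraries. The list's rises came to 0 without air library 19-24, 4 without air library 20-25 and 6 to 13 without any 1 silica library.

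Acute-phase proteins and binders of metal or haem, which withhold iron and limit oxidation by free haemoglobin, rose in 14 of 18 and none fell (median 1.38). Lcn2, which sequesters bacterial siderophores, was at 3.69 and 4.64 CPM in air and 25.9, 42.4, 89.8, 60.4 and 44.3 CPM in silica lungs. Hpx, the gene of the haem carrier hemopexin, was at 1.62 and 1.82 CPM in air and 5.44, 6.10, 15.9, 14.5 and 9.05 CPM in silica lungs, and Hp, the gene of the haemoglobin binder haptoglobin, at 26.2 and 42.1 CPM in air and 103, 131, 333, 219 and 163 CPM in silica lungs. The air lungs of 1 day held 5.09 to 9.74, 2.47 to 2.70 and 44.5 to 52.0 CPM of these genes, below each silica library. Tf, the gene of the iron carrier transferrin, rose by 2.07 ± 0.34 and Hmox1, the haem-degrading oxygenase gene, by 1.57 ± 0.25. Hamp, the gene of the iron hormone hepcidin, did not pass (-0.49 ± 0.82). With libraries left out this count was 1 without air library 19-24, 5 without air library 20-25 and 11 to 14 without any 1 silica library.

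Complement components and regulators rose in 17 of 27 entries tested and none fell (median 1.27). C3, the central component, was at 239 and 348 CPM in air and 1300.2, 1840.0, 2424, 2272 and 1665 CPM in silica lungs, against 406 to 516 CPM in air lungs of 1 day. Cfb, the alternative pathway protease gene, was at 476 and 548 CPM in air and 1265, 1809, 3389.6, 2543 and 2063 CPM in silica lungs. The inhibitor genes Cfi and C4bpb rose alongside these, and Cfi, whose product cleaves C3b, was at 10.3 and 12.9 CPM in air and 46.3, 78.6, 159, 129.6 and 92.2 CPM in silica lungs. C4bpb, a chain of the C4-binding protein, was near the floor in air lungs (0.115 and 0.0910 CPM in air and 1.12, 1.92, 3.65, 2.18 and 1.38 CPM in silica lungs), and the other chain, C4bpa, was at 35.2 and 42.2 CPM in air and 122, 198, 313, 285 and 212 CPM in silica lungs. Activating and inhibitory members thus both rose, while the C1q chain genes did not pass (C1qa 1.05 ± 0.32, C1qb 1.02 ± 0.30). The rises numbered 0 without air library 19-24, 10 without air library 20-25 and 15 to 21 without any 1 silica library.

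Chitinase-family genes, Retnla and other genes of alternative macrophage activation rose in 7 of 14. Chia, an acidic mammalian chitinase gene, was at 70.3 and 123 CPM in air and 1366, 1958, 4159, 3268 and 2451 CPM in silica lungs, a difference of 27.4-fold in the means (4.78 ± 0.57, adjusted p = 0.00515). Retnla, which encodes the secreted protein RELM-alpha of alternatively activated macrophages and airway epithelium, was at 3.00 and 4.73 CPM in air and 45.5, 87.3, 435, 262 and 152 CPM in silica lungs. Its silica libraries spanned 45.5 to 435 CPM and each lay above all air libraries of both times (3.16 to 4.11 CPM at 1 day). Chi3l1, a chitinase-like protein gene without enzyme activity, was at 119.8 and 174 CPM in air and 514, 718, 1400.5, 1090.4 and 739 CPM in silica lungs, and Arg1, the arginase gene, at 16.2 and 19.02 CPM in air and 29.6, 53.2, 77.4, 59.6 and 61.1 CPM in silica lungs. Chit1 (-0.05 ± 0.20) and the mannose receptor gene Mrc1 (0.30 ± 0.26) did not pass. Rises counted in the same way were 0 without air library 19-24, 3 without air library 20-25 and 6 to 8 without any 1 silica library.

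Macrophage genes of lipid loading and tissue remodelling rose in 14 of 19 and fell in 1. Mmp12, macrophage elastase, was at 6.92 and 14.7 CPM in air and 53.1, 58.4, 138, 120.5 and 79.8 CPM in silica lungs, and Spp1, osteopontin, at 29.0 and 14.3 CPM in air and 50.5, 73.3, 201, 170.1 and 169.9 CPM in silica lungs. Spp1 in the late air libraries was itself above the air lungs of 1 day (0.788 to 2.53 CPM), so that its difference against the earlier lungs was 6.48 ± 0.53 where that against the late air lungs was 2.62 ± 0.64. Mmp7, a metalloproteinase of epithelium, was near the floor in air lungs and at 0.448, 0.982, 5.18, 3.45 and 2.70 CPM in the silica libraries. The fall was Itgax, an integrin gene of macrophages, dendritic cells and NK cells, at 553 and 384 CPM in air and 194, 93.6, 84.1, 91.4 and 86.7 CPM in silica lungs. Its level is uncertain, with fractional counts in every library. Trem2, a lipid receptor gene, rose by 1.36 ± 0.39, and Gpnmb, at 537 and 813 CPM in air and 795, 1632, 1821, 2013 and 1536 CPM in silica lungs, did not pass (adjusted p = 0.0542). Leaving libraries out, the rises came to 0 without air library 19-24, 2 without air library 20-25 and 3 to 16 without any 1 silica library.

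Alveolar macrophage markers rose in 9 of 18 (median 1.08), and markers of monocytes and interstitial macrophages in 7 of 18 (median 0.80). The lipid-binding Fabp4 was at 7.33 and 5.37 CPM in air and 20.97, 26.4, 99.6, 56.0 and 56.7 CPM in silica lungs, and the lysosomal membrane protein gene Cd68 at 43.4 and 59.0 CPM in air and 95.5, 144, 268, 194 and 181 CPM in silica lungs. Lysosomal genes rose in 20 of 32 and fell in 1, Gusb (-0.97 ± 0.11). Ctsh, a cathepsin of type 2 cells and macrophages, was at 412 and 538 CPM in air and 981, 1352, 2669, 1869 and 1753 CPM in silica lungs, and Ctsz at 75.4 and 94.2 CPM in air and 146, 197, 408, 272 and 275 CPM in silica lungs. Each of these genes was lowest in library 30-31 and highest in library 33 among the silica lungs. The lysosomal rises numbered 0 without air library 19-24, 1 without air library 20-25 and 4 to 23 without any 1 silica library, and those of alveolar macrophage markers 0 without air library 19-24, 2 without air library 20-25 and 5 to 11 without any 1 silica library.

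Proteases and their inhibitors rose in 15 of 30 and none fell. Mmp8, neutrophil collagenase, was at 4.04 and 5.01 CPM in air and 14.01, 23.3, 12.4, 18.0 and 9.74 CPM in silica lungs, and Ctsk, the osteoclast protease cathepsin K, rose by 1.66 ± 0.41. Most collagens and other matrix genes did not pass. Of 34 entries, 4 rose and 1 fell (median 0.18), where 9.52% and 10.1% of all genes did. Col1a1 was at 91.4 and 170.1 CPM in air and 198, 160.4, 131, 147 and 169 CPM in silica lungs and Col3a1, the other main fibrillar collagen gene, at 351 and 596 CPM in air and 620.1, 665, 572, 552 and 621 CPM in silica lungs, and neither passed (adjusted p = 0.442 and 0.262). The rises were Col16a1 (85.7 and 76.7 CPM in air and 132, 176, 255, 239 and 211 CPM in silica lungs), Thbs2 (1.96 and 6.33 CPM in air and 12.0, 15.96, 9.18, 12.7 and 10.6 CPM in silica lungs), Vcan (7.09 and 9.10 CPM in air and 22.03, 21.9, 13.2, 19.2 and 13.8 CPM in silica lungs) and Fmod (0.75 ± 0.13), and the fall was the basement membrane collagen Col15a1 (-0.89 ± 0.17). Acta2, a smooth muscle and myofibroblast actin gene, did not pass (0.25 ± 0.18). The protease rises numbered 0 without air library 19-24, 4 without air library 20-25 and 6 to 17 without any 1 silica library, and the matrix rises 0 without air library 19-24, 3 without air library 20-25 and 2 to 6 without any 1 silica library.

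Oxidant and antioxidant genes of phagocytes rose in 11 of 24 and fell in 1, Rac2 (-1.01 ± 0.19). Slc7a11, the cystine transporter gene, was at 0.923 and 1.09 CPM in air and 4.32, 9.62, 3.71, 8.35 and 5.09 CPM in silica lungs, Ncf4, a subunit of the phagocyte NADPH oxidase, at 12.5 and 13.9 CPM in air and 33.4, 45.8, 69.8, 43.9 and 49.8 CPM in silica lungs, and Srxn1, sulfiredoxin, rose by 1.82 ± 0.26. Genes of eicosanoid synthesis and arginine use rose in 10 of 27 and fell in 2. Alox12, a lipoxygenase, was at 3.23 and 3.82 CPM in air and 14.01, 16.7, 20.3, 15.5 and 18.5 CPM in silica lungs, above the 6.00 to 8.29 CPM of air lungs of 1 day. The falls were Asl (-1.36 ± 0.16), an enzyme of arginine synthesis, and the endothelial nitric oxide synthase Nos3 (-1.04 ± 0.27). Inducible Nos2 (2.45 ± 0.55) has an uncertain level. The list's rises came to 0 without air library 19-24, 3 without air library 20-25 and 7 to 16 without any 1 silica library for the oxidant genes and 0 without air library 19-24, 2 without air library 20-25 and 5 to 13 without any 1 silica library for the eicosanoid genes.

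In the epithelium, alveolar type 2 genes rose in 14 of 17 and none fell (median 1.23). Sftpa1, surfactant protein A, was at 4999 and 5735 CPM in air and 9764, 14488, 24259, 17900.2 and 16546 CPM in silica lungs, and Sftpd, surfactant protein D, at 472 and 599 CPM in air and 983, 1528, 2698, 1950.3 and 1854 CPM in silica lungs. Lyz2, lysozyme, which type 2 cells and macrophages share, was at 13229 and 14284 CPM in air and 24882, 33532, 54147, 42068 and 42403 CPM in silica lungs and had an uncertain level. Muc1 was at 99.8 and 132 CPM in air and 237, 342, 643, 483 and 436 CPM in silica lungs. Sftpb did not pass (0.90 ± 0.27, adjusted p = 0.0548). Air libraries of 6 months lay below the air lungs of 1 day in Sftpa1 (6754 to 7423 CPM at 1 day) and Sftpd (702 to 829.8 CPM). In these 2 genes the silica libraries lay above both sets of air lungs. Sftpc was at 8611 to 10210 CPM at 1 day, so silica library 30-31 (8581 CPM) lay at about the lower end of that range and the other silica libraries above it. Against air of 1 day, the late air difference passed for Sftpc (-0.74 ± 0.22) but not for Sftpa1 (-0.37 ± 0.22) or Sftpd (-0.51 ± 0.25). Nkx2-1, the transcription factor of lung epithelium, was at 102 and 114 CPM in air and 180.3, 213, 259.8, 244 and 235 CPM in silica lungs, against 169 to 196 CPM at 1 day, so that silica library 30-31 lay within the range of the earlier air lungs and the other silica libraries above it. The type 2 rises numbered 0 without air library 19-24, 1 without air library 20-25 and 9 to 15 without any 1 silica library.

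Alveolar type 1 genes rose in 3 of 18 (median 0.22), where 9.52% of all genes rose. The 3 were Cldn18 (0.87 ± 0.16), Gprc5a (0.63 ± 0.14) and Pdpn (0.56 ± 0.14). Against the air lungs of 1 day, 13 of the 18 fell in the late air lungs and 13 fell in the late silica lungs, where 19.1% and 12.2% of all genes did. Pdpn, podoplanin, was at 349 and 354 CPM in air and 452, 509.7, 595, 482 and 554 CPM in silica lungs and at 585 to 629.6 CPM in air lungs of 1 day. Endothelial genes gave a like picture, in that 16 of 27 fell in late air and 17 in late silica against the earlier air lungs. Between the late groups this list gave 4 rises and 1 fall, where 9.52% of all genes rose and 10.1% fell. Its rises between the late groups came to 0 without air library 19-24, 0 without air library 20-25 and 2 to 5 without any 1 silica library. Both late groups thus stood below the earlier lungs in most type 1 and endothelial genes. These comparisons share the libraries of 1 day, the 2 times were deposited as separate tables, and time of kill cannot be told apart from the table. The type 1 rises numbered 0 without air library 19-24, 0 without air library 20-25 and 1 to 7 without any 1 silica library.

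Airway secretory genes rose in 8 of 20 and none fell, and genes of airway peroxidase and ion transport in 8 of 18 with 1 fall. Bpifb1, an antimicrobial protein gene of airway glands and goblet cells, was at 2.94 and 16.7 CPM in air and 35.4, 65.1, 196, 145 and 72.6 CPM in silica lungs, with the air libraries themselves far apart. Muc20, a membrane mucin gene, was at 0.461 and 1.14 CPM in air and 6.17, 7.98, 15.9, 11.2 and 9.55 CPM in silica lungs, and Pigr, the receptor that carries immunoglobulin A across epithelium, at 906 and 1198 CPM in air and 2010.5, 2676, 3687, 3474 and 2779 CPM in silica lungs. The gel-forming mucin gene Muc5b (-1.23 ± 0.73) and the goblet cell gene Clca1 (-2.22 ± 1.02) did not pass. The chloride channel gene Cftr rose by 1.48 ± 0.29, and Duox1, which supplies hydrogen peroxide to lactoperoxidase, did not pass (1.03 ± 0.32, adjusted p = 0.0573). The fall was the carbonic anhydrase gene Car12, at 6.11 and 2.46 CPM in air and 1.57, 0.655, 0.824, 0.728 and 0.942 CPM in silica lungs. None of 21 ciliated cell entries passed, among them Foxj1 (0.57 ± 0.28). Of 17 genes of transitional and basal epithelium 6 rose, led by the growth factor genes Areg (2.17 ± 0.58) and Ereg (1.78 ± 0.51) and by Lgals3 (1.51 ± 0.38). Ereg was low throughout, at 0.923 and 0.728 CPM in air and 3.25, 4.09, 1.06, 2.82 and 2.95 CPM in silica lungs. At 1.06 to 1.90 CPM in air lungs of 1 day, it did not pass between these and the silica lungs (0.99 ± 0.54). With libraries left out this count was 0 without air library 19-24, 3 without air library 20-25 and 4 to 8 without any 1 silica library for secretory genes and 1 without air library 19-24, 3 without air library 20-25 and 4 to 11 without any 1 silica library for ion transport genes. Those of transitional and basal epithelium came to 0 without air library 19-24, 0 without air library 20-25 and 1 to 7 without any 1 silica library.

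**Figure D3:**
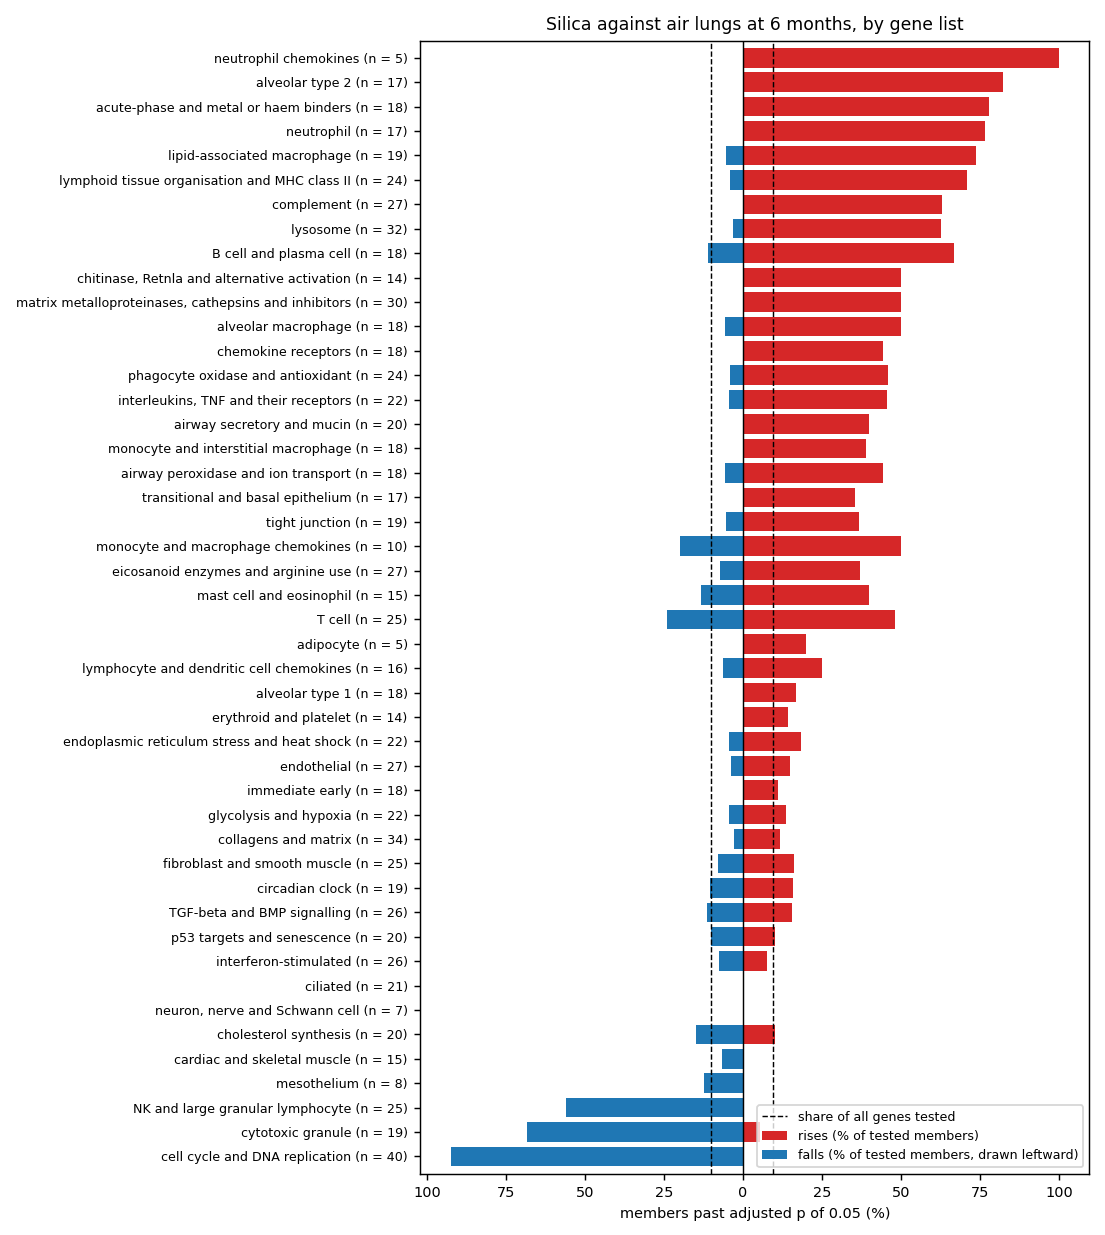
Share of the tested members of each gene list (horizontal axis, percent) that rose, drawn to the right, or fell, drawn to the left, between silica and air lungs at 6 months, with the share among all genes tested as dashed lines at 9.52% and 10.1%. Neutrophil chemokines, alveolar type 2 and acute-phase genes stand at the top, and cell cycle, cytotoxic granule and NK genes at the bottom.

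Lymphocyte genes moved both ways. B cell and plasma cell genes rose in 12 of 18 and fell in 2. Fcer2, the low-affinity IgE receptor CD23 of B cells, was at 0.461 and 0.455 CPM in air and 3.76, 3.56, 4.18, 4.85 and 4.21 CPM in silica lungs and passed in all 7 fits (3.15 ± 0.26, adjusted p = 0.00315). Cd79b, a chain of the B cell receptor, was at 0.692 and 0.637 CPM in air and 3.87, 2.78, 7.24, 4.81 and 5.97 CPM in silica lungs. In the air lungs of 1 day Fcer2 was at 1.90 to 3.64 CPM and Cd79b at 6.51 to 9.52 CPM, so the late air libraries lay below the earlier air lungs in both genes. Against these earlier lungs, 13 of 20 members fell in late air lungs (3 rose), where 5 rose and 4 fell in silica lungs. Over all genes tested, 22.5% rose and 19.1% fell in late air lungs, and 13.8% rose and 12.2% fell in silica lungs. Mzb1, an endoplasmic reticulum protein gene of antibody-secreting cells, was at 0.808 and 1.41 CPM in air and 3.59, 8.39, 11.1, 8.59 and 11.5 CPM in silica lungs. It was at 1.76 to 4.06 CPM at 1 day, so silica library 30-31 lay within that range and the other silica libraries above it. The falls were Cd37 (-0.86 ± 0.20) and Prdm1 (-1.49 ± 0.23), genes that T and NK cells also express. The rises numbered 1 without air library 19-24, 3 without air library 20-25 and 7 to 13 without any 1 silica library.

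Of 25 T cell entries, 12 rose and 6 fell. The CD3 chain genes rose: Cd3e was at 3.23 and 5.01 CPM in air and 11.5, 13.1, 17.7, 14.5 and 25.6 CPM in silica lungs (1.99 ± 0.37), with Cd3d at 2.23 ± 0.44 and Cd3g at 2.22 ± 0.38. The regulatory T cell genes Foxp3 and Ctla4 rose too. Foxp3 was at 0.461 and 0.410 CPM in air and 1.96, 3.15, 3.71, 3.398 and 3.33 CPM in silica lungs and Ctla4 at 0.288 and 0.228 CPM in air and 1.35, 2.01, 2.29, 1.84 and 2.95 CPM in silica lungs, each silica library above all air libraries of 6 months and of 1 day (0.788 to 1.18 and 0.506 to 0.823 CPM). Cd4 rose by 1.08 ± 0.18. By contrast Cd8a fell, at 637 and 443 CPM in air and 205, 55.5, 74.6, 52.4 and 73.5 CPM in silica lungs (-2.55 ± 0.50), and so did genes of antigen receptor signalling that NK cells share: Cd247, the CD3 zeta chain, was at 287 and 198 CPM in air and 58.2, 23.5, 26.5, 21.8 and 25.8 CPM in silica lungs, Zap70 fell by 2.01 on the log2 scale (SE 0.41) and Lck by 1.86 (SE 0.38). Against the air lungs of 1 day, at 35.7 to 69.5 CPM for Cd8a and 13.2 to 27 CPM for Cd247, the late air lungs were higher. Rises counted in the same way were 0 without air library 19-24, 8 without air library 20-25 and 11 to 13 without any 1 silica library, and the falls 0 without air library 19-24, 3 without air library 20-25 and 5 to 6 without any 1 silica library.

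Genes of lymphoid tissue organisation and MHC class II rose in 17 of 24 and fell in 1 (median 1.65). Cd74, the invariant chain that guides class II molecules, was at 737 and 994 CPM in air and 1613, 2148, 4262, 2743 and 2840.0 CPM in silica lungs, against 1211 to 1424 CPM in air lungs of 1 day. Ciita, the class II transactivator gene, rose by 1.34 ± 0.21. Ccr7, the receptor that brings T cells and dendritic cells to lymphoid tissue, was at 0.692 and 1.55 CPM in air and 4.20, 6.43, 5.29, 6.07 and 6.41 CPM in silica lungs, where the air lungs of 1 day (2.91 to 5.29 CPM) overlapped the silica lungs. The organising chemokine genes Cxcl13 (1.93 ± 0.81, adjusted p = 0.139) and Ccl19 (1.84 ± 0.70, adjusted p = 0.107) did not pass. The costimulatory genes went opposite ways, Cd86 up (1.66 ± 0.32) and Cd80 down (-1.85 ± 0.36), with Cd80 at 6.63 and 6.83 CPM in air and 2.97, 1.84, 1.00, 2.18 and 1.32 CPM in silica lungs and the late air libraries the highest. Leaving libraries out, the rises came to 0 without air library 19-24, 4 without air library 20-25 and 12 to 17 without any 1 silica library.

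Chemokine receptors rose in 8 of 18 and none fell. Ccr3, an eosinophil receptor, was at 0.750 and 1.55 CPM in air and 4.20, 4.42, 4.88, 4.17 and 5.09 CPM in silica lungs and at 2.34 to 5.00 CPM in air lungs of 1 day, so that late air lungs were the low group. Of lymphocyte and dendritic cell chemokines 4 of 16 rose and 1 fell, where 9.52% of all genes rose and 10.1% fell. Cxcl11, an interferon-induced ligand of CXCR3, was at 0 and 0.364 CPM in air and 1.12, 2.09, 8.35, 6.26 and 4.90 CPM in silica lungs, with 1 air library at 0, and Ccl22, an attractant of regulatory T cells, at 0.461 and 1.46 CPM in air and 4.76, 6.38, 9.18, 5.92 and 7.85 CPM in silica lungs. Ccl5, which NK and T cells store, was the fall, at 1247 and 832 CPM in air and 414, 128, 139.6, 90.7 and 157 CPM in silica lungs. Interferon-stimulated genes gave 2 rises, Ifit1 (uncertain) and Ifit3 (1.93 ± 0.34), and 2 falls, among them Irf1 (-0.60 ± 0.14), of 26. That is 7.69% in each direction, below the 9.52% and 10.1% of all genes. Mast cell and eosinophil genes rose in 6 of 15 and fell in 2. Cpa3, the mast cell carboxypeptidase gene, was at 0.923 and 1.73 CPM in air and 2.58, 4.99, 9.82, 9.66 and 5.21 CPM in silica lungs, and Mcpt9 (uncertain) fell by 2.81 (SE 0.63). The list's rises came to 0 without air library 19-24, 4 without air library 20-25 and 6 to 10 without any 1 silica library for chemokine receptors and 0 without air library 19-24, 2 without air library 20-25 and 3 to 8 without any 1 silica library for mast cell genes.

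The falls described next had a different form, with the late air lungs as the highest group. The silica libraries lay within, above or in part below the range of the air lungs of 1 day, depending on the gene. NK and large granular lymphocyte genes fell in 14 of 25 and none rose (median -1.94), against 10.1% of all genes. Their summed level was 3731 and 3231 CPM in the 2 air libraries and 1258, 529, 529, 437 and 584 CPM in the silica libraries. It was 437, 884, 418 and 396 CPM in the 1-day air libraries 2-7, 4-8, 5 and 6. Both late air libraries were thus above all others, silica library 30-31 came next, and air library 4-8 of 1 day followed. Eomes, a transcription factor of NK and CD8 effector cells, was at 303 and 283 CPM in air and 51.9, 16.9, 12.9, 13.8 and 17.3 CPM in silica lungs (-3.70 ± 0.51, adjusted p = 0.00682), and at 13.5, 52.0, 12.2 and 9.88 CPM in those air lungs of 1 day. Il2rb, a chain of the interleukin-2 and interleukin-15 receptors, was at 595 and 637 CPM in air and 203, 76.7, 52.7, 58.9 and 81.1 CPM in silica lungs. The air lungs of 1 day held 61.3 to 129 CPM of Il2rb, so silica libraries 33 and 34 lay below that range. Ncr1, a receptor gene that marks NK cells in most mammals, fell by 2.22 (SE 0.42), and Klrk1, which encodes the activating receptor NKG2D, fell by 2.43 (SE 0.45). The falls numbered 0 without air library 19-24, 8 without air library 20-25 and 12 to 15 without any 1 silica library.

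Lag3, Cd69 and Il10ra, picked after their values were seen, were among the 40 falls that passed in all 7 fits. Lag3, an inhibitory receptor that binds MHC class II, was at 64.0 and 37.0 CPM in air and 8.41, 5.61, 5.71, 3.54 and 5.84 CPM in silica lungs, with 2.58 to 6.96 CPM in the air lungs of 1 day. Cd69, an early activation marker, was at 80.1 and 52.8 CPM in air and 19.3, 14.1, 17.2, 13.6 and 17.0 CPM in silica lungs, and Il10ra, the receptor of interleukin-10, at 101 and 124 CPM in air and 59.5, 52.2, 44.5, 46.8 and 45.8 CPM in silica lungs. In air lungs of 1 day Cd69 was at 7.15 to 12.0 CPM and Il10ra at 34.6 to 40.8 CPM, below every silica library, with silica differences of 0.71 ± 0.18 (adjusted p = 0.00929) and 0.42 ± 0.12 (adjusted p = 0.0176). Lag3 fell by 3.12 on the log2 scale (SE 0.30), Cd69 by 2.03 (SE 0.19) and Il10ra by 1.17 (SE 0.14).

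Members of the Ly49 and killer lectin-like families did not all move together. Ly49s5 was at 22.3 and 56.6 CPM in air and 6.33, 2.58, 2.35, 2.23 and 5.21 CPM in silica lungs and passed in all 7 fits. Klri2, a lectin-like receptor gene, went the other way, at 0.577 and 0.182 CPM in air and 4.54, 5.32, 4.24, 4.56 and 3.58 CPM in silica lungs, with 6.11, 0.443, 4.36 and 4.18 CPM in the air lungs of 1 day. It was thus low in both late air libraries and in air library 4-8 of 1 day, the air libraries with the highest NK sums of each time. Ly49si1 was at 17.0 and 8.69 CPM in air and 13.8, 13.3, 31.9, 19.3 and 21.4 CPM in silica lungs and did not pass (0.64 ± 0.40). The genes of these families are near copies of each other, so a part of their reads may have been assigned to the wrong member.

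Cytotoxic granule genes fell in 13 of 19 and rose in 1, Stxbp2 (0.58 ± 0.14). Prf1, perforin, which opens the target cell membrane, was at 1398 and 826 CPM in air and 309, 137, 103, 109 and 112 CPM in silica lungs (-2.85 ± 0.44, adjusted p = 0.00799). In the air lungs of 1 day it was at 111, 178, 93.3 and 110.4 CPM, so the 2 late air libraries were above all 9 other lung libraries shown. The granzyme gene Gzmb fell by 2.31 (SE 0.37), Gzmk by 2.38 (SE 0.42) and Gzmm by 2.34 (SE 0.58). Nkg7, a granule membrane protein gene, was at 454 and 472 CPM in air and 119, 43.1, 48.4, 34.9 and 50.8 CPM in silica lungs. Efhd2, a calcium-binding protein gene of lymphocytes, was at 848 and 706 CPM in air and 307, 194, 223, 212 and 194 CPM in silica lungs, and Itgb2, the integrin beta 2 chain of leukocytes, at 1033 and 873 CPM in air and 517, 429, 356, 418 and 378 CPM in silica lungs. In air lungs of 1 day Efhd2 was at 146 to 173 CPM and Itgb2 at 221 to 298 CPM, below every silica library, with silica differences of 0.58 ± 0.17 (adjusted p = 0.0180) and 0.76 ± 0.15 (adjusted p = 0.00144). In Prf1, Nkg7, Efhd2 and Itgb2 silica library 30-31 was the highest of its group. The falls numbered 0 without air library 19-24, 8 without air library 20-25 and 11 to 13 without any 1 silica library.

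Genes of the cell cycle and DNA replication fell in 37 of 40 and none rose (median -1.46). Top2a, the topoisomerase of dividing cells, was at 167 and 143 CPM in air and 66.4, 30.3, 17.3, 28.8 and 21.5 CPM in silica lungs and at 8.46, 63.4, 12.0 and 11.9 CPM in the air lungs of 1 day. Mki67, the Ki-67 antigen gene, was at 290.2 and 246 CPM in air and 118, 63.4, 42.5, 56.1 and 44.2 CPM in silica lungs, and Kif11, a spindle motor gene, at 65.8 and 52.1 CPM in air and 19.6, 14.2, 7.65, 13.6 and 8.04 CPM in silica lungs. The 4 highest libraries came in the order seen for NK genes, since the summed level of the list was 2201 and 2020.3 CPM in the late air libraries, 1163, 694, 736, 701 and 651 CPM in the silica libraries and 424, 962, 440 and 436 CPM at 1 day. The members that did not pass were Aurka (-0.47 ± 0.18), Aurkb (-0.48 ± 0.19) and Tyms (-0.84 ± 0.31). Cdkn2a, a cell cycle inhibitor locus, moved with this list, at 8.08 and 7.37 CPM in air and 2.13, 0.778, 1.00, 0.728 and 0.942 CPM in silica lungs. The falls numbered 0 without air library 19-24, 17 without air library 20-25 and 35 to 37 without any 1 silica library.

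**Figure D4:**
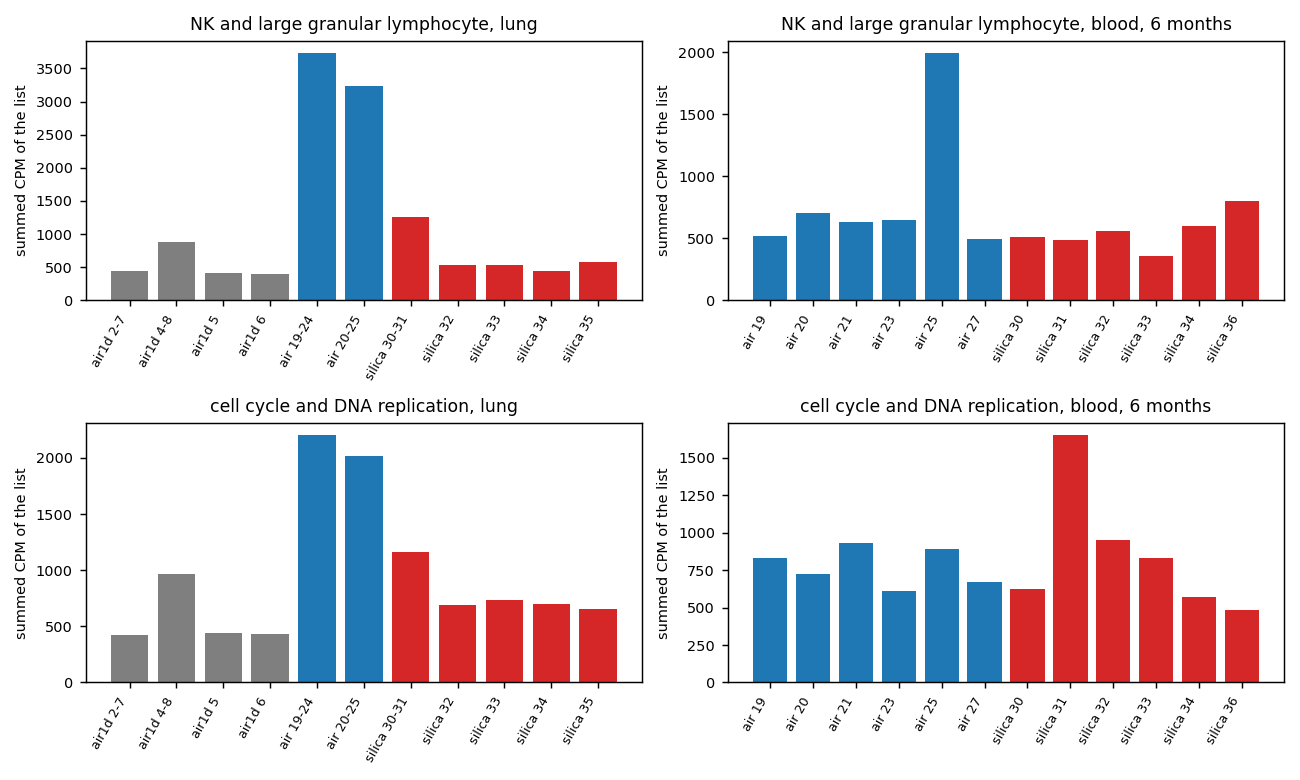
Summed CPM (vertical axes, from 0) of the NK and the cell cycle lists in each averaged lung library and in each blood library of 6 months, coloured by group (grey for air of 1 day, blue for air and red for silica of 6 months). In lung both lists are highest in the 2 late air libraries, and in blood the NK sum is highest in air library 25 and the cell cycle sum in silica library 31.

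In blood of the same time the NK sum was 355 to 800.0 CPM in 11 of the 12 libraries and 1993 CPM in air library 25. The number 25 also stands on a lung library of the averaged pair 20-25, but blood libraries 19 and 20, whose numbers stand on lung libraries that were just as high, were at 519 and 700.3 CPM. The cytotoxic granule sum in blood was 2423 CPM in air library 25 and 976 to 1425 CPM in the others. The cell cycle sum was 892 CPM in that library, inside the range of 481 to 1650 CPM over all 12. Whether equal numbers in lung and blood mark the same animal is not stated in the labels.

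Among the falls that passed in all 7 fits were several genes best known from other tissues. Cdh2, N-cadherin, an adhesion protein of nerve, muscle and mesenchyme, was at 195 and 120.2 CPM in air and 14.4, 9.86, 12.9, 16.9 and 7.10 CPM in silica lungs (-3.69 ± 0.31, adjusted p = 0.00315), and at 5.88 to 9.61 CPM in air lungs of 1 day. Of the silica libraries 4 lay above that range and 1 within it, a difference of 0.77 ± 0.23 (adjusted p = 0.0238), against 4.49 ± 0.28 for the late air lungs. Plb1, a phospholipase gene of gut, was at 53.6 and 20.5 CPM in air and 2.69, 0.941, 1.00, 1.07 and 1.57 CPM in silica lungs, against 0.591 to 1.26 CPM at 1 day. Hnf4a, a transcription factor of liver and gut, was at 33.2 and 81.9 CPM in air and 10.4, 3.52, 3.82, 3.49 and 5.90 CPM in silica lungs and at 1.53, 21.3, 3.32 and 1.70 CPM at 1 day, where air library 4-8 again stood above the rest of its group. Cldn20 was at 3.46 and 3.37 CPM in air and 0.112, 0.164, 0.0588, 0 and 0.126 CPM in silica lungs, and Wnt10b, a Wnt ligand gene, at 2.19 and 1.91 CPM in air and 0.168, 0.0819, 0.176, 0.194 and 0.188 CPM in silica lungs. Of the unnamed loci, LOC102551074 was at 8.71 and 8.65 CPM in air and 0.224, 0.491, 0.353, 0.0971 and 0.251 CPM in silica lungs, LOC103692792 at 6.58 and 5.28 CPM in air and 0.729, 0.409, 0.412, 0.680 and 0.251 CPM in silica lungs and LOC103690794 at 1.096 and 2.32 CPM in air and 0.112, 0.0409, 0, 0.0485 and 0.0628 CPM in silica lungs. LOC102552467, LOC102551119 and LOC103692800 fell by 3.75, 3.58 and 4.13 but have uncertain levels. In each of these genes both late air libraries were above every silica library.

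Falls of the same form also stood in lists of other cell types and functions. In the mesothelial list Calb2, calretinin, was at 32.99 and 30.99 CPM in air and 11.1, 2.17, 3.71, 2.86 and 2.14 CPM in silica lungs, while the other 7 members did not pass, among them mesothelin, Msln (0.83 ± 0.27). In the fibroblast list Gli1, a target of hedgehog signalling, was at 30.5 and 8.83 CPM in air and 4.15, 2.29, 1.53, 1.65 and 1.51 CPM in silica lungs, and in the TGF-beta and BMP list Gdf10 was at 71.3 and 79.3 CPM in air and 29.5, 4.34, 8.71, 8.01 and 5.46 CPM in silica lungs. The other growth factor changes in the TGF-beta and BMP list were smaller, with Tgfb1 at -0.63 ± 0.14 and Id2, which NK cells need to develop, at 153 and 118 CPM in air and 64.7, 56.5, 64.5, 60.2 and 48.2 CPM in silica lungs. In the clock list Arntl2 (uncertain) fell, at 5.77 and 1.09 CPM in air and 0.336, 0.123, 0, 0 and 0 CPM in silica lungs, while the core clock genes Arntl (-0.07 ± 0.11), Per1 (-0.44 ± 0.34) and Dbp (0.02 ± 0.24) did not pass. Myh2, a skeletal muscle myosin gene with an uncertain level, was at 17.5 and 82.8 CPM in air and 7.85, 5.57, 7.41, 4.17 and 5.09 CPM in silica lungs. It fell in a list whose members otherwise did not pass.

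By difference in mean CPM the largest falls, besides Prf1, Ccl5, Efhd2, Itgb2 and Il2rb, included genes that every cell uses. The translation factor gene Eef2 was at 2700.5 and 2494 CPM in air and 1791, 1663, 1922, 1725 and 1811 CPM in silica lungs, Pabpc1, the poly(A)-binding protein gene, at 1409 and 1085 CPM in air and 694, 587, 582, 612 and 549 CPM in silica lungs, and the chaperone gene Hsp90ab1 at 2412 and 2218 CPM in air and 1539.8, 1498, 1756, 1542 and 1495 CPM in silica lungs. Their changes were -0.54 ± 0.13, -1.04 ± 0.15 and -0.56 ± 0.13 on the log2 scale, where the median size of the called falls was 1.04. Eef2 and Hsp90ab1 each passed in only 2 of the 7 leave-one-out fits, and Pabpc1 passed in 6. Atp2a3, a calcium pump gene of blood cells (uncertain), was at 927 and 838 CPM in air and 279, 131, 114, 128 and 128 CPM in silica lungs. LOC100911597 (uncertain) was at 1962 and 1817 CPM in air and 1502, 1313, 1069, 1222 and 1313 CPM in silica lungs. Atp2a3 passed in 6 of the 7 leave-one-out fits and LOC100911597 in only 2. Among rises by the same measure, besides surfactant, Lyz2, Chia, Pigr, Cd74, C3 and Cfb, stood LOC103689965 (uncertain), at 717 and 886 CPM in air and 1677, 2216, 2242, 2669 and 1932 CPM in silica lungs. In the sterol pathway the enzyme gene Hmgcs1 (131 and 127 CPM in air and 73.7, 68.1, 60.7, 71.9 and 68.4 CPM in silica lungs) fell, Sqle rose (0.60 ± 0.17), and 15 of the 20 members did not pass. Hmgcs1 passed in 6 of the 7 leave-one-out fits and Sqle in only 2.

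The 2 forms of change can be read from the same lungs set against the air lungs of 1 day, in 1 fit of the 4 lung groups over 16568 genes. In the late air lungs 3725 genes rose (22.5%) and 3157 fell (19.1%), and in the late silica lungs 2281 rose (13.8%) and 2026 fell (12.2%). These comparisons share the 1-day air libraries with each other and the late libraries with the main comparison, so their values are set side by side only. Of the 25 NK genes, 18 rose in late air and 2 in late silica lungs, and of the 40 cell cycle genes 38 and 9. Prf1 differed by 3.22 ± 0.48 in air and by 0.34 ± 0.39 in silica, and Cdh2 by 4.49 ± 0.28 and 0.77 ± 0.23. For these lists the late air lungs were the group that stood apart.

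Other lists stood apart in the silica lungs. Of 18 acute-phase genes, 1 rose in late air lungs and 16 in silica lungs, and of 27 complement entries 0 and 21, with 8 falls in late air. Lpo differed from air of 1 day by 1.23 ± 0.48 in late air and by 9.19 ± 0.29 in silica lungs, Chia by -0.18 ± 0.31 and 4.57 ± 0.28, and C3 by -0.59 ± 0.20 and 2.07 ± 0.16. Lysosomal genes rose in 2 and 24 of 32. In a further set of lists the groups moved away from the 1-day lungs in opposite directions: neutrophil markers fell in 11 of 17 in late air and rose in 10 in silica, alveolar type 2 genes fell in 10 of 17 and rose in 12, and class II and lymphoid genes fell in 9 of 24 and rose in 14. With late air library 19-24 left out, the late air lungs had 2250 rises and 1394 falls.

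**Figure D5:**
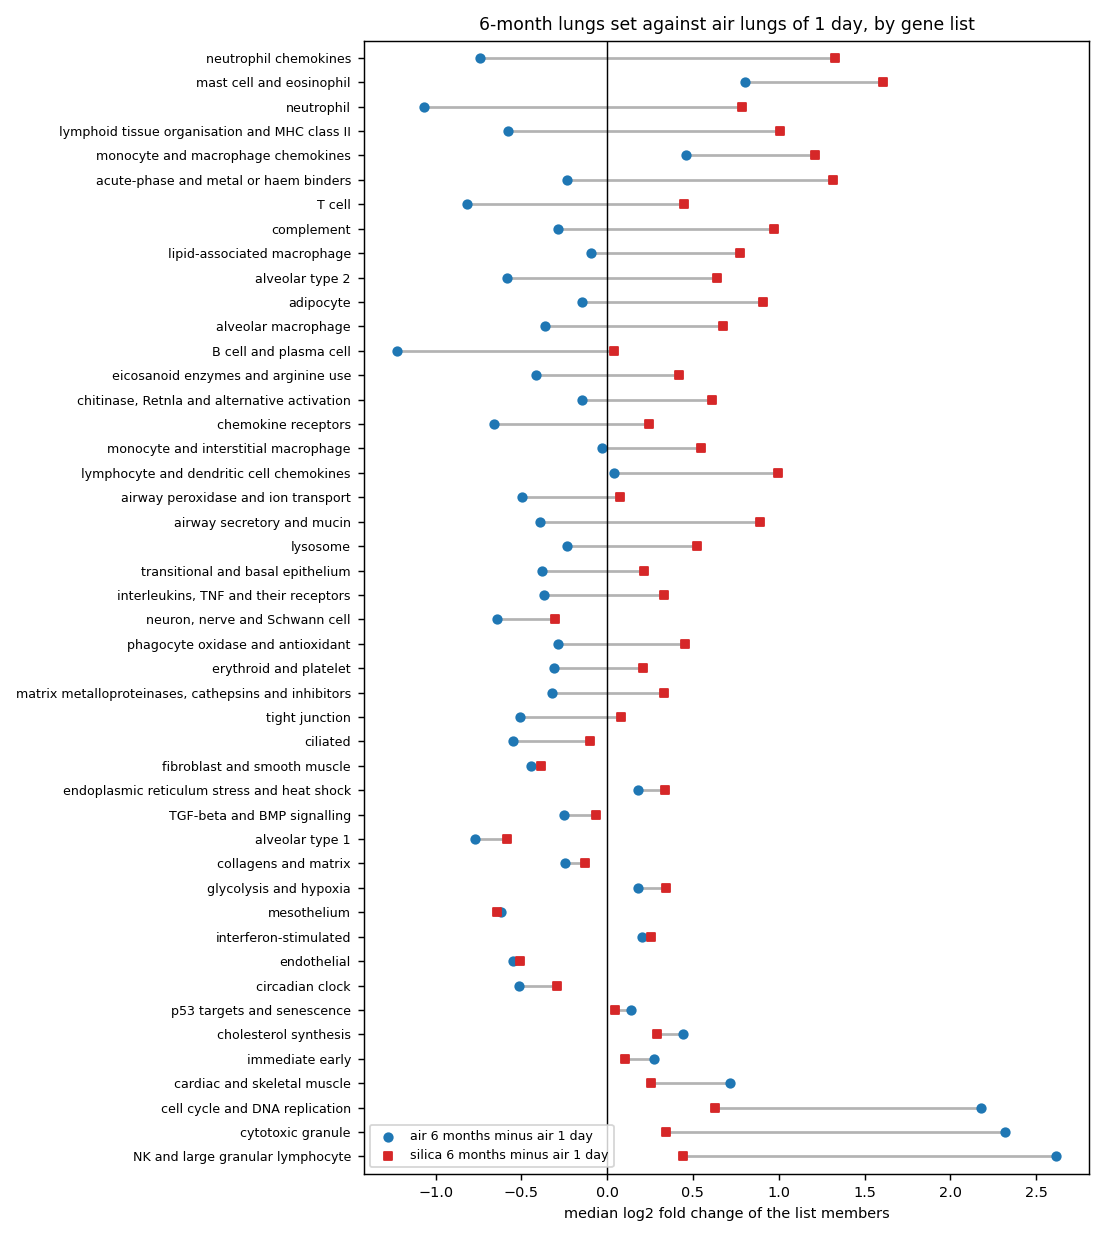
Median log2 fold change of each gene list in late air lungs (circles) and late silica lungs (squares) against air lungs of 1 day, in the order of the silica against air difference at 6 months. NK, cytotoxic and cell cycle lists have the circle far to the right of 0 and the square much closer to it, and acute-phase and complement lists have the square to the right of 0 and the circle a little to its left.

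Markers of other tissues and cells differed between libraries. Summed erythroid and platelet genes were at 5540.1 and 2980.5 CPM in the air libraries and 8574, 4458, 8800.4, 5277 and 5210.4 CPM in the silica libraries. Of 14 members 2 rose, Pf4 (1.18 ± 0.29) and Itga2b (0.77 ± 0.19), which is 14.3% where 9.52% of all genes rose. That count was 0 without silica library 34, 0 without 35 and 2 without 30-31, 32 or 33. Summed cardiac and skeletal muscle genes were at 50.1 and 444 CPM and 268, 78.9, 164, 119.7 and 83.6 CPM, with Nppa and Nppb at 0. Summed adipocyte genes were at 18.1 and 25.5 CPM and 38.2, 52.5, 143, 85.6 and 86.1 CPM, with Ucp1 at 0 and 1 of 5 members up (Fabp4), and neuron and Schwann cell genes at 8.48 and 9.79 CPM and 11.6, 10.9, 14.1, 10.3 and 12.4 CPM. In air lungs of 1 day the sums were 4343 to 6801 CPM for erythroid, 31.9 to 231 CPM for muscle and 26.3 to 32.1 CPM for adipocyte genes. The part of these tissues in the differences was not tested. Genes of p53 and senescence (2 up, 2 down of 20), immediate early genes (2 up of 18, Egr2 0.90 ± 0.16 and Ier3 0.81 ± 0.18), stress chaperones (4 up, 1 down of 22) and glycolysis genes (3 up, 1 down of 22) moved in a few members each, where 9.52% of all genes rose and 10.1% fell. Without air library 19-24, 0 members of these last 4 lists passed. Slc16a3, a lactate exporter gene (1.95 ± 0.30), led the last of these, with Hk1 the fall (-0.85 ± 0.12). Tight junction genes rose in 7 of 19, led by Cldn10 (1.65 ± 0.34) and Cldn3 (1.13 ± 0.30), and fell in 1, Cldn20. These rises, where 9.52% of all genes rose, came to 0 without air library 19-24, 0 without air library 20-25 and 2 to 8 without any 1 silica library.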

How the data were processed

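RNA was measured in rat lung and blood. The files the authors deposited hold estimated counts per gene, and the submitters' processing notes name build Rnor_6.0 with Salmon 1.10.1, STAR 2.6.1d, cutadapt 3.4, Trim Galore 0.6.7 and bcl2fastq 2.19; the role of each and the annotation release are not given in the sources used here. Such expected counts, which need not be whole, were rounded. The 6-month and 1-day lung samples were deposited as separate tables. Near-identical libraries were averaged first. Genes were kept by filterByExpr (minimum count 10, total 15), scaled by TMM and tested with edgeR 4.0.16 (quasi-likelihood, robust, R 4.3.3), 2 air against 5 silica libraries, with Benjamini-Hochberg adjustment over all genes and a threshold of 0.05. The SE is the log2 fold change divided by the square root of F. The fit against 1-day air lungs used all 4 lung groups. Scripts were tested on simulated data. Alternatives were limma-voom (limma 3.58.1), DESeq2 1.42.0, RLE factors, other filters, other treatment of the near-identical libraries and leaving out each library.

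Depth was 15753450 to 24638427 counts per library, so that the floor of 3 counts was 0.122 to 0.19 CPM; floors cover counting error only. A gene is called uncertain where its estimated counts were not whole in at least 60% of the 10 libraries. Genes named from all 16265 were those that passed every leave-one-out fit at 1 CPM or more (the largest fold changes) and those with the largest differences in mean CPM, besides members of 47 lists; 13 list names were not found. Others, such as Lag3, Cd69 and Il10ra, were chosen after their values were seen. The comparison and the lists were chosen with earlier results of these data known. Values are given for a part of the list members, and some results are not reported here.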

Additional observations from a re-analysis of the deposited data

Results flagged for a closer look

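Among 212 genes whose 5 silica libraries were checked, 31 (14.6%) had 1 library set apart from the other 4 by more than 0.71 of the whole range. In 26 of the 31 this was silica library 30-31, the averaged pair. The rule flags about 1 in 20 groups of independent, normally spread values. Many of the 212 genes were named because they passed the threshold, and 1 unusual library can flag linked genes together. The 14.6% is therefore not a comparison with chance.

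Library 30-31 was high in genes of NK and cytotoxic lymphocytes: Prf1 at 309 CPM (others 103 to 137), Eomes at 51.9 CPM (others 12.9 to 17.3), Tbx21 at 136 CPM (others 39.2 to 48.5) and Ncr1 at 31.1 CPM (others 10 to 13.9). It was also high for Klrk1 at 59.8 CPM (others 15.1 to 25.4), Nkg7 at 119 CPM (others 34.9 to 50.8), Gzmm at 137 CPM (others 25.1 to 53) and Il2rb at 203 CPM (others 52.7 to 81.1). Among T cell genes and Ccl5 it stood apart with Cd8a at 205 CPM (others 52.4 to 74.6), Cd247 at 58.2 CPM (others 21.8 to 26.5), Lck at 109 CPM (others 38 to 54.4) and Ccl5 at 414 CPM (others 90.7 to 157). Of dividing-cell genes it was high for Top2a at 66.4 CPM (others 17.3 to 30.3), Mki67 at 118 CPM (others 42.5 to 63.4), Mcm2 at 71.4 CPM (others 35.6 to 38.4) and E2f8 at 5.49 CPM (others 1.6 to 2.72). In each of these genes the 2 air libraries were higher still.

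The same library was high for other genes that fell: Itgax at 194 CPM (others 84.1 to 93.6), Atp2a3 at 279 CPM (others 114 to 131), Efhd2 at 307 CPM (others 194 to 223) and Gdf10 at 29.5 CPM (others 4.34 to 8.71). The rest were Calb2 at 11.1 CPM (others 2.14 to 3.71), Cdkn2a at 2.13 CPM (others 0.728 to 1), Nos3 at 27.3 CPM (others 12.8 to 15.9) and Hk1 at 108 CPM (others 86.5 to 91). It was low for 2 genes that rose, Il1rn at 69.1 CPM (others 108 to 117) and Pou2af1 at 6.84 CPM (others 11.7 to 13.3).

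Silica library 33 was high for Scgb1a1 at 8560 CPM (others 4290 to 5520) and Hsp90ab1 at 1760 CPM (others 1490 to 1540), and for Pf4 at 19 CPM (others 9.87 to 12.1) and Hspa1b at 12 CPM (others 8.35 to 9.32). Silica library 32 was low for Wnt10b, at 0.0819 CPM against 0.168 to 0.194 CPM in the others, all of them near the floor of 3 counts.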

How the results depend on the processing

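Counts of genes past the threshold depended most on which libraries entered. With each library as its own sample 3211 rises and 3185 falls passed, and with the 4 lung groups in 1 fit 2946 and 3555. Leaving out 1 averaged library gave 9 to 2100 rises and 48 to 2069 falls, lowest without air library 19-24 and highest without silica library 33. Requiring at least a 2-fold change left 859 rises and 871 falls. RLE factors, other filters, the first library of each pair, limma-voom and DESeq2 gave 1396 to 2140 rises and 1500 to 2035 falls. All 57 genes called without air library 19-24 were among the 3190, and 947 of the 1063 called without air library 20-25 were. Over all settings the median, over genes, of the change in log2 fold change from the main fit was at most 0.03 in size.

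Groups that do not overlap numbered 3456 rises and 3861 falls with any gap, 22 and 24 with a gap of 4-fold, and 91 rises with 2 CPM added. With 1 library left out, an alternative chosen after seeing the data, they numbered 190 to 511 rises and 261 to 591 falls. Against air lungs of 1 day, leaving out 1 library, also chosen after seeing the data, gave 2250 to 3638 rises and 1394 to 3172 falls in late air lungs, and 1530 to 2752 rises and 1316 to 2286 falls in late silica lungs. The lowest value of the last range was without 1-day air library 6. Of 212 genes followed one by one, 165 no longer passed without air library 19-24, 93 without air library 20-25, 37 without silica library 34, 36 without 35, 18 without 32, 3 without 30-31 and 1 without 33, and 0 reversed. Where a call was lost with a library left out, fewer samples were in the fit. The cause of other shifts was not tested.

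No paired analysis was possible because the air and silica groups share no replicate number. Depth limits genes near the floor of 3 counts, such as Vat1l, Orm1 and Cldn20, in 1 of the groups.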

Other observations

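The 2 air libraries of 6 months differed from each other along the same genes in which they differed from the silica lungs. Of the 1549 rises, 1298 were higher in air library 20-25 than in air library 19-24 and 245 were lower, and of the 1641 falls, 1276 were higher in 19-24 and 365 in 20-25. Air library 19-24 was thus the farther from the silica lungs in most called genes. Most of these gaps were small: the air libraries differed by more than 2-fold in 13 of the rises, in 67 of the falls and in 542 of the 16265 genes tested. No test was made of this pattern, and each gene's call used the same 2 libraries.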
